A study of Mus musculus with 6 samples.

Results

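The genes examined here encode the SR proteins, the hnRNPs and a set of further regulators of pre-mRNA splicing. They were taken by symbol alone from the deposited gene table: every gene whose name starts with Srsf or Hnrnp, together with Rbfox1, Rbfox2, Rbfox3, Nova1, Nova2, Ptbp1, Ptbp2, Celf1, Celf2, Celf4, Mbnl1, Mbnl2, Tra2a and Tra2b. This gave 45 of the 13170 genes in the table. By role, 13 are SR or Tra2 genes, 22 are hnRNP or Ptbp genes, and 10 are Rbfox, Nova, Celf or Mbnl genes. Libraries of poly(A) RNA from brains of mice of the C57 genotype came from a group labelled high in sexual motivation (3 libraries) and a group labelled low (3 libraries). The series title refers to adult males and to the medial amygdala, the design text writes MeA and the extraction protocol writes PrL, so the labels do not give 1 tissue name. Neither the behavioural score that defined the groups nor the number of animals per library is stated, and the p-values then measure the spread between these libraries, which may be technical.

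SR proteins carry RNA recognition motifs and a domain rich in arginine and serine, and many of them bind exonic enhancers and help the spliceosome to recognise an exon. The hnRNPs coat nascent transcripts, and several of them repress exons. Rbfox, Nova, Ptbp, Celf and Mbnl proteins bind short sequence motifs near alternative exons, and in brain they shape the isoforms of ion channels, adhesion molecules and synaptic proteins. Many splicing factors also control their own transcripts through exons that lead to nonsense-mediated decay.

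Values are FPKM (fragments mapped to a transcript, scaled for its length and for the size of the library), which account for transcript length and so allow levels to be set side by side between genes. Depth relative to the median library, inferred from the FPKM of low genes, ran from 0.916 to 1.28. By this estimate high library 2 was the deepest and low library 2 next (1.20). On principal component 2 of all genes (25.5% of the variance) high library 2 scored 20.2, against −5.43 to −2.28 in the other libraries. Mitochondrial genes made up 11.1% of the summed FPKM there and 13.6% to 16.4% elsewhere. Neuronal markers summed to 659 to 750 FPKM over the 6 libraries (6 markers, of which Rbfox3 is itself a member). The 6 choroid plexus markers summed to 1327 FPKM in low library 1 and 4130 in low library 3, against 38.9 to 109 in the other 4 libraries, and the 5 ependymal markers to 17.4 to 34.1 in the low group against 10.2 to 11.6 in the high group. In bulk tissue, fewer cells of a type and less RNA per cell cannot be told apart.

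All 45 genes had a mean of at least 1 FPKM, the minimum for testing, so the filter removed none of them. Their means ran from 2.79 FPKM (Mbnl1) to 76.7 FPKM (Hnrnpa1), with 13 genes above 40 FPKM and 10 below 10 FPKM. Their median level was 23.9 FPKM, against 7.25 FPKM over all 12026 tested genes. Together they held 0.466% to 0.527% of the summed FPKM of a library.

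The most abundant member was Hnrnpa1, which encodes a repressor of many exons, with 76.2, 78.4 and 82.9 FPKM in high libraries 1 to 3 and 79.3, 74.8 and 68.6 FPKM in low libraries 1 to 3. Srsf5, an SR protein gene, had 71.5, 78.5 and 77.8 FPKM in the high group and 72.3, 76.1 and 64.8 FPKM in the low group. Hnrnpa2b1, whose protein also takes part in RNA transport, had 64.4, 69.8 and 72.7 FPKM against 71.6, 77.1 and 62.5 FPKM. The groups overlapped in these 3 genes, their levels overlapped one another, and each was lowest in low library 3. At the other end stood Hnrnpr (4.83, 4.30 and 4.60 FPKM against 4.86, 4.77 and 4.35 FPKM), Hnrnpll (4.05, 3.76 and 4.18 FPKM against 4.40, 4.66 and 4.07 FPKM) and Mbnl1. Mbnl1, a muscleblind protein gene, had 3.08, 1.52 and 3.02 FPKM in the high group and 2.81, 3.36 and 2.94 FPKM in the low group. High library 2 was the lowest of the 6 in each of these 3 genes, and for Mbnl1 it lay at 0.50 times the mean of the other 5 libraries.

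**Figure D1:**
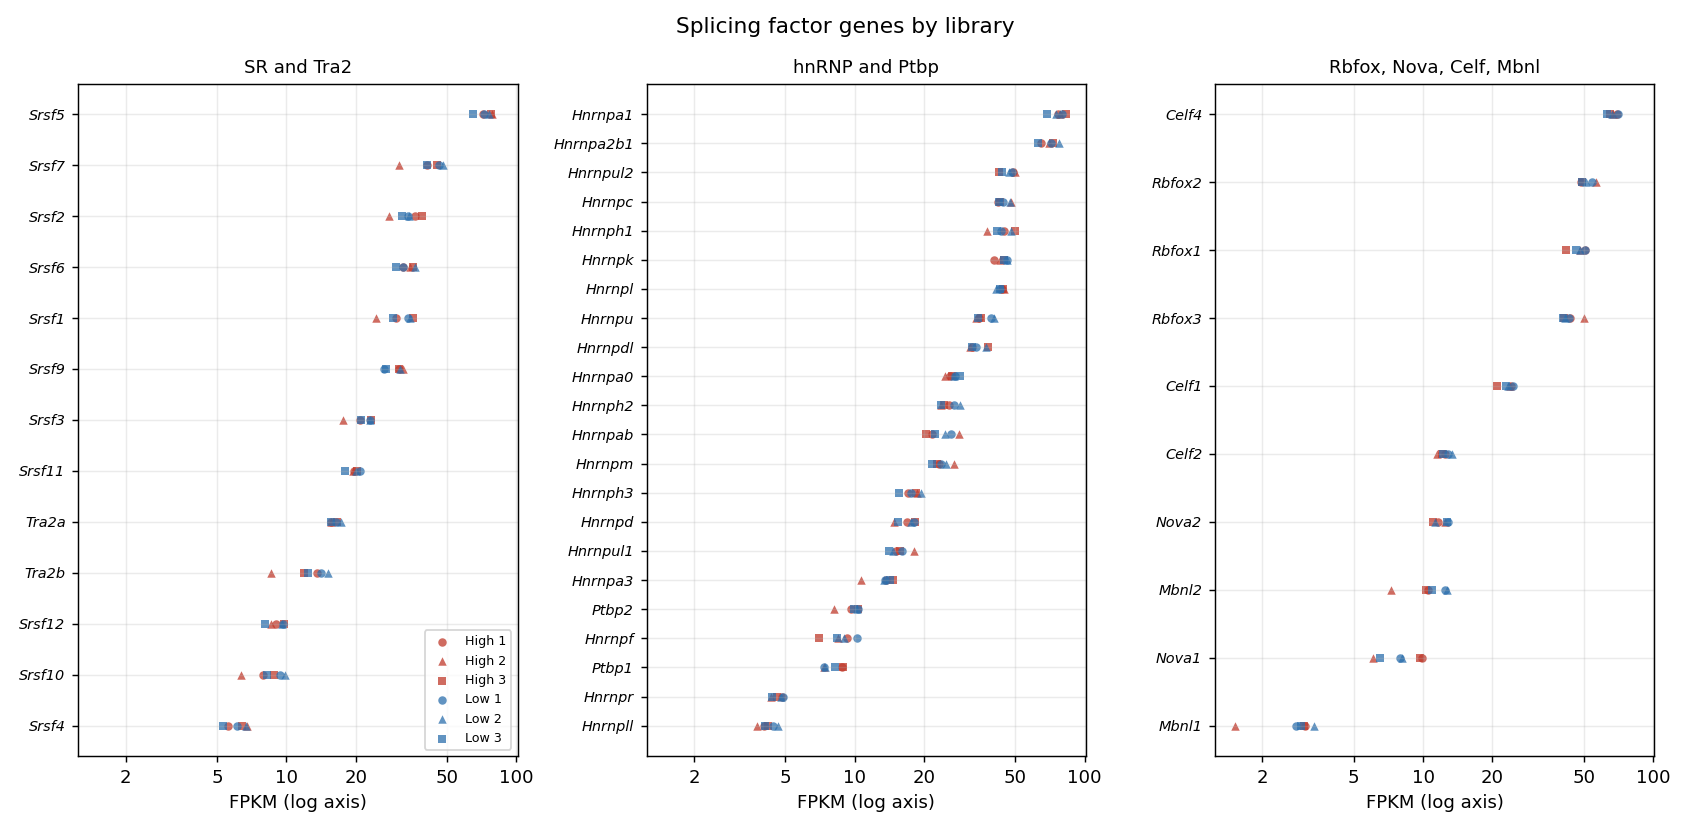
FPKM of the 45 splicing factor genes on a log axis, 1 panel per role, with genes ordered by mean level and 1 point per library (red, high group; blue, low group; circle, triangle and square, libraries 1, 2 and 3). Red and blue points are mixed in most genes, and the red triangle of high library 2 lies to the left in Mbnl1, Mbnl2, Tra2b and Srsf10.

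No splicing factor gene differed between the high and low groups at an adjusted p under 0.05. The test was limma on log2(FPKM + 1) over all genes with Benjamini-Hochberg adjustment, and differences are given as high minus low on that scale, which understates the change of low genes. It called 0 of the 45 members and 0 of all 12026 tested genes (0%). At an unadjusted p under 0.05 it took 1 member, Mbnl2, or 2.22% of the members, where 8.39% of all tested genes passed (4.27% lower and 4.12% higher in the high group). In FPKM the groups did not overlap in 3 members, or 6.67%, where they did not overlap in 14.9% of all tested genes (7.33% higher and 7.61% lower in the high group). By both counts the members' share lay below that of all genes.

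The 3 members with separate groups were Mbnl2, Hnrnpa0 and Hnrnpl. Mbnl2, which encodes a muscleblind protein prominent in brain, had 10.5, 7.23 and 10.3 FPKM in the high group and 12.5, 12.7 and 10.9 FPKM in the low group. Every high library was below every low library, with low library 3 close to high library 1, and high library 2 far below the rest. The group means were 9.33 ± 1.82 and 12.03 ± 0.988 FPKM (SD, n = 3 each), a ratio of 0.776. The log2 difference was −0.35 (SE 0.132; limma adjusted p = 0.582), and its 95% interval ran from −0.65 to −0.04. Without high library 2 it was −0.19 (SE 0.0806; limma adjusted p = 0.446). Its unadjusted p was no longer under 0.05 without low library 1 (difference −0.32) or without low library 2 (difference −0.31).

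Hnrnpa0, an hnRNP gene with a single exon, had 25.9, 24.7 and 26.4 FPKM in the high group and 27.2, 27.0 and 28.7 FPKM in the low group, with all 3 high libraries below the low libraries by a narrow margin. Its log2 difference was −0.10 (SE 0.0595; limma adjusted p = 0.646). Hnrnpl, which encodes a protein that binds CA repeats, went the other way, with 43.9, 44.6 and 44.3 FPKM against 43.0, 41.2 and 43.0 FPKM. The gap between the groups was small in Hnrnpl, whose log2 difference was 0.06 (SE 0.0546; limma adjusted p = 0.756). In the authors' deposited table Hnrnpl has an unadjusted p of 0.0424 and a fold change of 0.06 (log2 of the ratio of mean FPKM). That table gives Mbnl2 an unadjusted p of 0.0872 and a fold change of −0.37.

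Over the SR and Tra2 genes, 7 of 13 had a difference above 0 and 6 below, with a median of 0.0014 where the median of all tested genes was 0.00018. None of the 13 passed at an unadjusted p under 0.05. Tra2b, whose protein binds GAA-rich exonic enhancers, had 13.5, 8.54 and 11.9 FPKM in the high group and 14.2, 15.1 and 12.4 FPKM in the low group. High library 2 was again the lowest, and high library 1 lay between low libraries 3 and 1. The log2 difference of Tra2b was −0.29 (SE 0.150; limma adjusted p = 0.607), and −0.12 without high library 2.

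Srsf10, an SR protein that represses splicing when dephosphorylated, had 7.89, 6.38 and 8.83 FPKM against 9.40, 9.81 and 8.25 FPKM. Srsf7, which also takes part in mRNA export, had 41.0, 30.9 and 45.2 FPKM against 45.9, 48.1 and 41.0 FPKM. In both genes high library 2 was lowest, low library 2 was highest, and high library 3 lay above low library 3. Their log2 differences were −0.23 (SE 0.114) for Srsf10 and −0.21 (SE 0.134) for Srsf7, with limma adjusted p of 0.605 and 0.664. Without high library 2, that of Srsf10 was −0.12 and that of Srsf7 was −0.06.

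Srsf9 had the largest positive difference among the SR genes. It stood at 30.9, 32.1 and 30.9 FPKM in the high group and at 26.6, 31.3 and 27.1 FPKM in the low group. Low library 2 lay inside the range of the high libraries. The log2 difference of Srsf9 was 0.14 (SE 0.0742; limma adjusted p = 0.607). The remaining SR genes, among them Srsf1, Srsf3, Srsf6 and Srsf11, had overlapping groups.

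Among the hnRNP and Ptbp genes, 7 of 22 had a difference above 0 and 15 below, with a median of −0.02. With a trend on GC content and transcript length removed from every library, 16 of the 22 were above 0 and 6 below, with a median of 0.03, so the balance of directions depends on this choice. Over all tested genes 50.1% were above 0 before the removal. After it 6310 of 11910 genes were, with a median of 0.0068. None of the 22 passed at an unadjusted p under 0.05. Hnrnpu, a nuclear scaffold protein, had 34.7, 33.8 and 35.3 FPKM against 39.2, 40.4 and 34.2 FPKM, where low library 3 lay among the high libraries. Hnrnpk, whose protein binds C-rich stretches through KH domains, had 40.2, 42.8 and 44.6 FPKM against 46.0, 45.8 and 44.5 FPKM, and overlapped by a narrow margin between high library 3 and low library 3. Their log2 differences were −0.13 (SE 0.0740) and −0.09 (SE 0.0612), with limma adjusted p of 0.654 and 0.679. Hnrnpul1 had 15.1, 18.1 and 15.7 FPKM against 16.1, 14.7 and 14.2 FPKM, with high library 2 highest and low library 1 inside the high range (log2 difference 0.11, SE 0.0846; limma adjusted p = 0.714, and 0.04 without high library 2). Hnrnpll, given above, had a log2 difference of −0.10 (SE 0.0780; limma adjusted p = 0.713).

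Neighbouring genes limit the values of 8 members. In the annotation, Hnrnpk, Hnrnpu, Hnrnpab, Hnrnph3, Ptbp1 and Srsf2 overlap a protein-coding gene on the opposite strand, and Hnrnpm and Hnrnpul2 one on the same strand. The library protocol keeps strand by dUTP marking, but no source used here says whether the counting made use of it, and opposite-strand reads may then be shared. Several hnRNP genes, such as Hnrnpa1, have processed copies elsewhere in the genome, and how shared reads were assigned is not given either.

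The 95% intervals show how large a difference these libraries could hide. They included 0 for 44 of the 45 members, Mbnl2 being the exception. The half-width of the interval had a median of 0.20 on the log2 scale and ran from 0.13 (Hnrnpl) to 0.42 (Mbnl1). The median half-width corresponds to 14.5% above and 12.6% below the estimate in FPKM + 1. In 28 members the estimated difference lay within 0.1 of 0. The coefficient of variation over the 6 libraries had a median of 7.80% in the members and 9.33% in all tested genes.

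**Figure D2:**
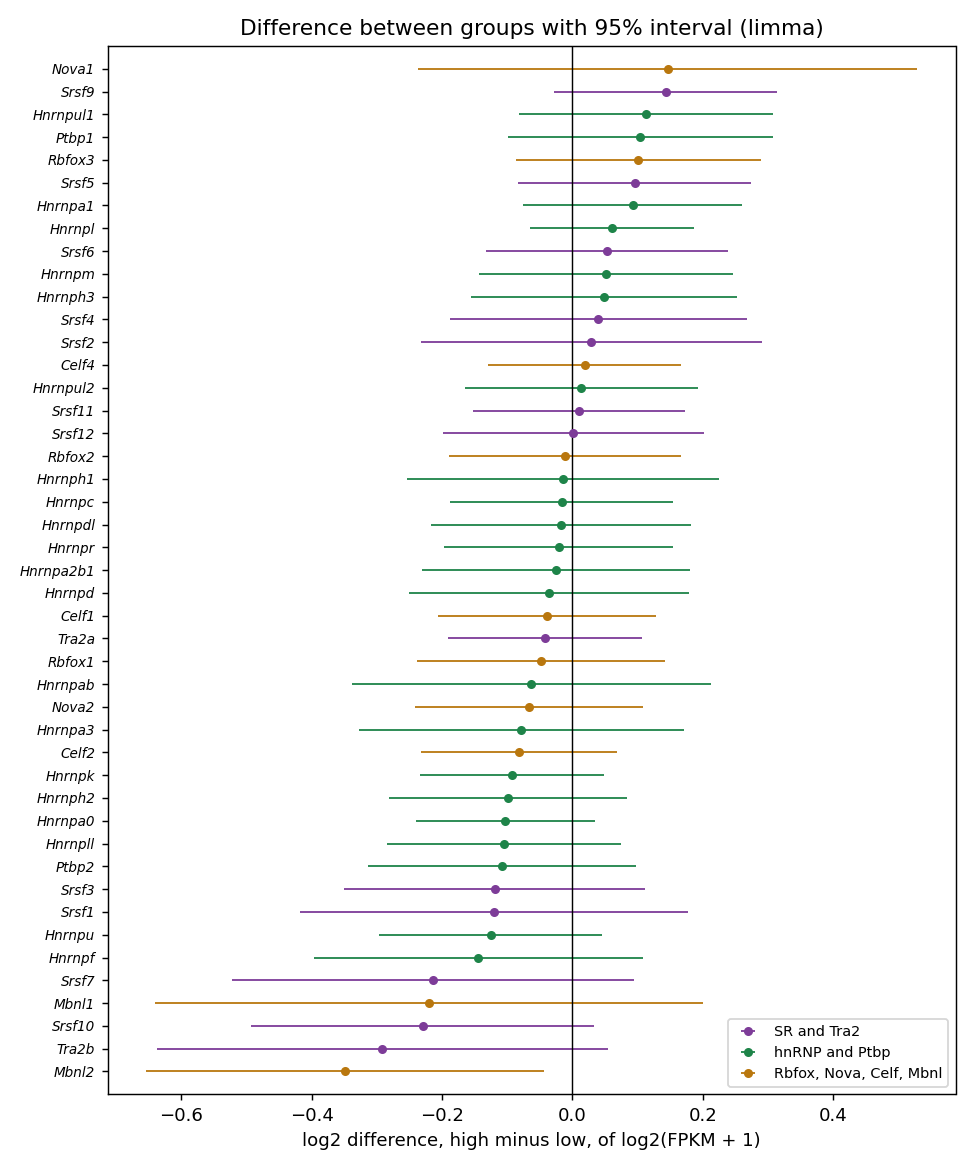
Log2 difference (high minus low) of log2(FPKM + 1) for each of the 45 genes, ordered by size, with 95% intervals from limma and colours by role. Every interval but that of Mbnl2 crosses 0, and the widest belong to Mbnl1 and Nova1.

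The Rbfox, Nova, Celf and Mbnl genes had a difference above 0 in 3 of 10 and below 0 in 7 of 10, with a median of −0.04, and Mbnl2 was the 1 gene among them with an unadjusted p under 0.05. With the GC and length trend removed, 5 of the 10 were above 0 and 5 below. Celf4, a neuronal member of the Celf family, was the most abundant of them at 66.9 FPKM on average. The Rbfox genes encode proteins that bind the motif TGCATG, and Rbfox3 encodes the neuronal marker NeuN. Rbfox1 had 50.6, 48.1 and 41.7 FPKM in the high group and 50.5, 48.1 and 46.2 FPKM in the low group. Rbfox2 had 48.5, 56.2 and 49.0 FPKM against 54.5, 51.3 and 49.0 FPKM, and Rbfox3 had 43.7, 50.3 and 41.1 FPKM against 43.2, 41.5 and 40.6 FPKM. The groups overlapped in all 3, and the 3 genes were present at similar levels. High library 2 was the highest of the 6 libraries for Rbfox2 and Rbfox3, the opposite of its place in Mbnl1 and Mbnl2.

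Paralogous splicing factors can replace one another during neuronal differentiation, as when Ptbp2 takes over from Ptbp1, which neurons repress. Ptbp1 had 8.77, 7.33 and 8.89 FPKM in the high group and 7.33, 7.44 and 8.22 FPKM in the low group, and Ptbp2 had 9.68, 8.13 and 10.4 FPKM against 10.3, 10.3 and 9.88 FPKM. Each gene overlapped between the groups, with limma adjusted p of 0.740 for Ptbp1 and 0.737 for Ptbp2. The ratio of Ptbp2 to Ptbp1, which a single scaling factor per library leaves as it is, was 1.104, 1.11 and 1.17 for high libraries 1 to 3, and 1.41, 1.38 and 1.20 for low libraries 1 to 3. The ratio was thus lower in every high library, at 1.13 ± 0.0348 against 1.33 ± 0.111 (SD, n = 3 each). Its exact 2-sided permutation p was 0.1, the smallest that 3 against 3 libraries can give, and 0.6 after adjustment over the 6 paralog ratios compared. The transcripts of Ptbp1 and Ptbp2 differ in GC content (53.7% and 43.1%), and with the GC and length trend removed their log2 differences went from 0.10 and −0.11 to 0.09 and −0.03. Ptbp1 also overlaps the gene Plppr3 on the opposite strand, so its FPKM may hold reads of that gene. Markers of non-neuronal cells, in which Ptbp1 is expressed, also varied: summed endothelial markers were 33.3 to 40.4 FPKM in the high group and 28.4 to 33.4 FPKM in the low group, and summed oligodendrocyte markers were 319 to 374 FPKM against 290 to 321 FPKM. Both sums overlapped between the groups. So did those of astrocytes (120 to 188 against 147 to 175 FPKM), microglia (89.0 to 94.7 against 84.3 to 95.8 FPKM) and oligodendrocyte precursors (27.4 to 30.5 against 29.8 to 30.7 FPKM). Leptomeningeal markers (4 of 5 listed were present) summed to 21.1, 5.35 and 11.8 FPKM against 4.91, 8.58 and 5.42 FPKM, and overlapped as well. The sums of ependyma and choroid plexus are given above. The part of these cell types in the ratio was not tested.

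Nova1 and Nova2 encode KH-domain proteins that bind YCAY motifs, with Nova2 the main form in neocortex and Nova1 more prominent in hypothalamus, midbrain and hindbrain. Nova1 had 9.86, 6.09 and 9.66 FPKM in the high group and 7.91, 8.06 and 6.50 FPKM in the low group. High libraries 1 and 3 were above all low libraries, and high library 2 was below all of them. The log2 difference was 0.15 (SE 0.166; limma adjusted p = 0.809) with all libraries and 0.35 (SE 0.0961; limma adjusted p = 0.255) without high library 2. Nova2 had 11.6, 12.5 and 11.0 FPKM against 12.9, 11.3 and 12.7 FPKM, with overlapping groups and no such gap in high library 2. For high library 2 the ratio of Nova2 to Nova1 was 2.05, and elsewhere it ran from 1.14 to 1.95, the last in low library 3. The 2 glutamate neuron markers summed to 267 FPKM in high library 2 and 240 FPKM in low library 3, against 155 to 206 FPKM elsewhere. The 3 GABA neuron markers summed to 114 and 115 FPKM in these libraries, against 133 to 157 FPKM elsewhere. The part of neuron types in the Nova values was not tested.

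The other pairs repeated the place of high library 2. Mbnl2 stood at 3.40 to 4.75 times the level of Mbnl1, with the highest ratio in high library 2. Tra2a, the paralog of Tra2b, had 15.7, 15.6 and 16.5 FPKM in the high group and 16.4, 17.3 and 15.6 FPKM in the low group. Its ratio to Tra2b ran from 1.14 to 1.39 in 5 libraries and reached 1.82 in high library 2, where Tra2a stood at 0.955 and Tra2b at 0.637 times the mean of the others. Groups overlapped in the ratios of these pairs, of the Nova pair and of Rbfox2 and Rbfox3 to Rbfox1 (exact 2-sided permutation p of 0.2 to 0.8).

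**Figure D3:**
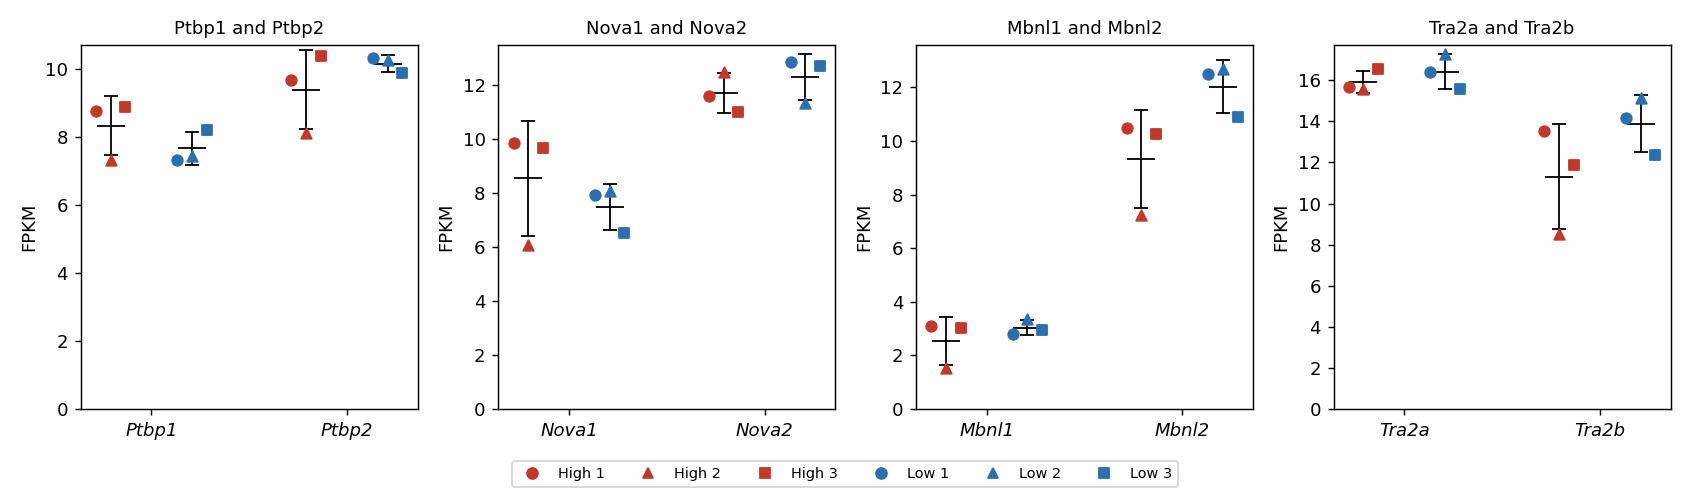
FPKM of 4 pairs of paralogous genes, with 1 point per library (red, high; blue, low; circle, triangle and square, libraries 1, 2 and 3) and black lines for the group mean ± SD. The triangle of high library 2 is the lowest red point in every gene shown but Nova2, where it is the highest.

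High library 2 was the lowest of the 6 libraries for 22 of 45 members, or 48.9%, against 23.4% of all tested genes. It was also the highest for 11 members, or 24.4%, against 22.8% of all tested genes. Its level relative to the mean of the other 5 libraries ran from 0.50 in Mbnl1, 0.636 in Mbnl2, 0.637 in Tra2b, 0.699 in Srsf7, 0.722 in Srsf10 and 0.725 in Nova1 up to 1.20 in Rbfox3 and 1.23 in Hnrnpab. The place of a member in this order followed the GC content of its longest coding transcript. Across the 45 members the Spearman rho between the deviation of high library 2 and GC content was 0.671, given as a description, since the points share the same libraries. Over all tested genes with a GC value, rho was 0.451. Low library 2 ran the other way, with a rho of −0.611 in the members and −0.499 in all tested genes.

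Transcripts of the splicing factor genes were poorer in G and C than those of most genes, with a median of 44.9% against 50.7% over 11892 tested protein-coding genes. Of the 22 members below the members' median GC, 17 were lower in high library 2 than in the mean of the other 5 libraries, with a median ratio of 0.887. Among the 23 members at or above it, 9 were lower, with a median ratio of 1.03. The difference between the groups was below 0 in 18 of the 22 GC-poor members (median −0.09) and in 10 of the 23 others (median 0.01). Exceptions existed in both directions: Srsf2, with a GC content of 49.97%, lay at 0.800 in high library 2, while Hnrnpc, at 42.9%, lay at 1.097. The split was not made over all tested genes, where high library 2 also followed GC content (rho 0.451). What produced the relation with GC content was not tested.

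The Nova paralogs differ in composition throughout, and the start of each coding sequence is printed to show how far they differ. The first 120 coding bases of each are given 5′ to 3′ from the GENCODE transcripts of GRCm38, with CG dinucleotides in capitals. They lie in 1 exon each, at chr12:46818632-46818751 on the minus strand for Nova1 and at chr7:18925888-18926007 on the plus strand for Nova2.
Nova1: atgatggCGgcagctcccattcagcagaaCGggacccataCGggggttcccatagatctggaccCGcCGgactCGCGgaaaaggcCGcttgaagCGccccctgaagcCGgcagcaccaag
Nova2: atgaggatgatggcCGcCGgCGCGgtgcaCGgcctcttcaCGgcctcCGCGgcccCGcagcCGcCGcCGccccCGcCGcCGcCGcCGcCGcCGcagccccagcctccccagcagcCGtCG
The Nova1 stretch holds 10 CG dinucleotides and is 64.2% G and C, and the Nova2 stretch holds 21 and is 82.5% G and C. Both stretches are richer in G and C than the rest of their transcripts. Over the longest coding transcript the GC content was 38.5% for Nova1 and 56.3% for Nova2, and high library 2 stood at 0.725 and 1.05 times the mean of the other libraries. Over the coding sequence alone it was 50.2% and 70.6%. Across the members the rho of the level in high library 2, relative to the other 5, was 0.62 with the GC content of the transcript used for this split (n = 45), 0.44 with that of its 3′ UTR (n = 44) and 0.27 with that of its coding sequence (n = 45).

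Low library 3 was the other library in which the members lay low. It was the lowest library for 12 of 45 members (26.7%), against 14.6% of all tested genes, and 37 members lay below their own mean in it. All 13 SR and Tra2 genes did so, at 0.842 to 0.979 times the mean of the other 5 libraries (median 0.920), where 47.9% of all tested genes lay below their mean. In low library 2, by contrast, none of the 13 SR and Tra2 genes lay below its mean, against 50.7% of all tested genes. The deviation of low library 3 had a rho of −0.121 with GC content over the 45 members and of −0.615 over the 13 SR and Tra2 genes, against 0.0350 over all tested genes. Once a trend on GC content and transcript length was removed from every library, low library 3 was lowest for 22 of 45 members (48.9%) against 20.04% of all genes, and high library 2 for 11 (24.4%) against 17.5%. Low library 3 also held the most choroid plexus RNA, given above. In low library 1, which held the next most, 3 of the 13 SR and Tra2 genes lay below their mean, against 46.7% of all tested genes. The part of choroid plexus RNA in the SR values was not tested.

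**Figure D4:**
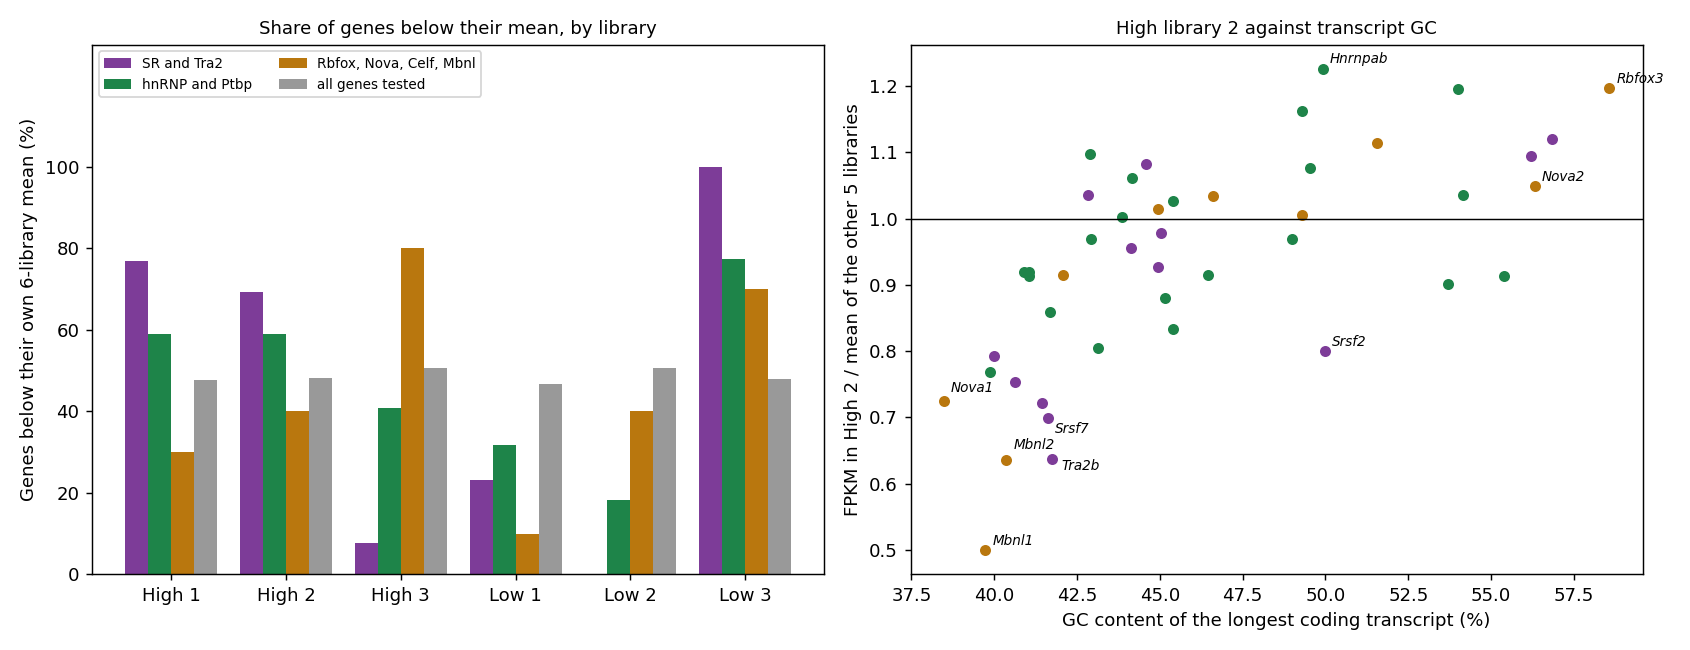
Left, share of genes (%) that lie below their own mean over the 6 libraries, by library, for the 3 roles and for all genes tested (grey). Right, FPKM in high library 2 divided by the mean of the other 5 libraries against GC content of the longest coding transcript (%), 1 point per gene; all 13 SR and Tra2 genes lie below their mean in low library 3, and ratios in high library 2 run from 0.50 for Mbnl1 to 1.23 for Hnrnpab.

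With high library 2 left out, 5 of the 45 members had an unadjusted p under 0.05 by limma, against 11.0% of all tested genes, and 0 passed after adjustment. They were Nova1, Srsf2 and Ptbp1, with positive differences, and Hnrnpab and Mbnl2, with negative ones. Srsf2, the SR protein SC35, had 36.1, 28.0 and 38.7 FPKM in the high group and 33.9, 34.1 and 31.8 FPKM in the low group, so that high library 2 alone lay below the low group. Hnrnpab had 21.8, 28.3 and 20.4 FPKM against 26.2, 24.6 and 22.4 FPKM, with high library 2 above the low group and the other 2 below it. Leaving out that library moved the log2 difference of Srsf2 from 0.03 to 0.16 and that of Hnrnpab from −0.06 to −0.20. With the GC and length trend removed, 3 members had an unadjusted p under 0.05 (Nova1, Mbnl2 and Hnrnpa0), against 7.73% of all genes with both properties, and 0 passed after adjustment. In that fit the log2 difference was 0.33 for Nova1 and −0.21 for Mbnl2.

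The annotation of the members, which the choice by name did not use, differed between the roles. At least 1 transcript marked for nonsense-mediated decay was annotated in 25 of 45 members (55.6%), against 28.3% of tested protein-coding genes. Among the SR and Tra2 genes this held for 11 of 13, among the hnRNP and Ptbp genes for 12 of 22, and among the Rbfox, Nova, Celf and Mbnl genes for 2 of 10. A transcript with a retained intron was annotated in 32 members (71.1%), against 58.2%. Members had a median of 9 annotated transcripts and tested protein-coding genes a median of 5. A gene-level FPKM adds such transcripts to the coding ones, so a shift between them within a gene would not be seen here.

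Promoter windows from RefSeq (GRCm38.p6) were found for 41 of the 45 members, as 59 windows, of which the 250 bases before the annotated start were searched on both strands for 8 motifs. The median window of a member held 22 CG dinucleotides, against 16 for tested genes and 6 for all windows. The GC box GGGCGG was present in 71.2% of the member windows, 57.8% of those of tested genes and 32.7% of all 32851 windows. The shares in member, tested and all windows were 42.4%, 34.8% and 33.9% for the CCAAT box (CCAAT), and 8.475%, 6.09% and 12.4% for the TATA box (TATAAA). The E2F-type motif TTCCCGCC was found in 18.6%, 3.40% and 1.86%, and in 9 members, among them Srsf1, Srsf4, Srsf10, Tra2b and Mbnl1. The ETS motif CCGGAAG had 15.3%, 12.6% and 6.91%, the NRF1-type motif GCATGCGC 5.085%, 4.22% and 2.26%, the CRE TGACGTCA 1.695%, 2.56% and 1.55%, and the E box CACGTG 8.475%, 8.29% and 6.02%. These shares count windows, and a gene can have several. Counted by gene, the ETS motif was in 14.6% of the 41 members and 15.2% of tested genes. For the other motifs the direction against tested genes was the same by gene. The E2F-type and GC box motifs can overlap, and a match is a string of letters, not a bound site.

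Promoters of 3 members, chosen because they were low together in high library 2, are printed 5′ to 3′ on the strand of the gene. Matches to these motifs on either strand are in capitals, and bases inside the annotated gene are left out. They lie at chr14:120275419-120275668 (plus strand) for Mbnl2, at chr16:22266006-22266255 (minus strand) for Tra2b and at chr17:80207308-80207555 (minus strand) for Srsf7.
Mbnl2: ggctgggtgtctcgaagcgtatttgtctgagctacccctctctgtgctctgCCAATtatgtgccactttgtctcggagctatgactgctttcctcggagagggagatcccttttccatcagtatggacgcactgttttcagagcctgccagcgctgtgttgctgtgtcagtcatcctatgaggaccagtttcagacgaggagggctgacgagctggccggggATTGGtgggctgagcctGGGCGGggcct
Tra2b: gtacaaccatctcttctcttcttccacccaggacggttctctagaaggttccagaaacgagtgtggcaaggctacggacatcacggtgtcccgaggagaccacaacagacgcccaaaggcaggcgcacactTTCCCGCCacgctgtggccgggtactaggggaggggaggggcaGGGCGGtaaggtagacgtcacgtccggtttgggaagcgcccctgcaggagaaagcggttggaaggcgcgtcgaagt
Srsf7: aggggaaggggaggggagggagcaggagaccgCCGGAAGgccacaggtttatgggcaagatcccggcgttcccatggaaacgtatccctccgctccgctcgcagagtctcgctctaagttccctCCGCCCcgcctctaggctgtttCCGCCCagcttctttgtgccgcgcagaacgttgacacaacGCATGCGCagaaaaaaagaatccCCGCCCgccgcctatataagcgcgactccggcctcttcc
Mbnl2 has a CCAAT box on each strand and a GC box next to the start, Tra2b an E2F-type match and a GC box, and Srsf7 a match each to the ETS and NRF1-type motifs and 3 GC boxes. No motif of the 8 was found in all 3 but the GC box. Their GC contents were 57.2%, 60.8% and 62.1%, all above those of the transcripts they precede (40.4%, 41.8% and 41.6%). This was not particular to them. The median window was 61.6% G and C in the members and 60% in tested genes, against transcript medians of 44.9% in the members and 50.7% in tested protein-coding genes. Mbnl1, lower still in high library 2, also has a GC box, and its promoter is not printed.

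Genes of the wider splicing machinery were counted by role, from 6 lists with 119 tested genes. By limma 0 of the 119 passed after adjustment and 5 (4.20%) had an unadjusted p under 0.05, against 8.39% of all tested genes. Groups did not overlap in 19 (15.97%, against 14.9% of all tested genes), 13 of them higher and 6 lower in the high group. The median log2 differences were 0.0029 over the 10 kinases and other regulators of SR proteins, 0.05 over the 23 SR-related proteins and coactivators, 0.02 over the 20 U1 and U2 snRNP genes, 0.04 over the 8 Sm protein genes, 0.02 over the 20 genes of the tri-snRNP and its partners, and −0.03 over the 38 further splicing regulators.

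Of the genes that act on SR proteins, Srpk2, an SR protein kinase, had 10.8, 10.95 and 10.7 FPKM in the high group and 11.8, 12.04 and 11.7 FPKM in the low group. Clk3, a nuclear kinase of SR proteins, had 9.77, 9.72 and 10.2 FPKM against 8.39, 9.07 and 9.34 FPKM. The groups were separate in both genes, in opposite directions, with log2 differences of −0.12 (SE 0.0569) and 0.13 (SE 0.0662) and limma adjusted p of 0.599 and 0.605. Once the GC and length trend was removed, the difference was 0.02 for Srpk2 and 0.09 for Clk3.

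Snrpe, a subunit of the Sm ring of the spliceosomal snRNPs, had the smallest p of the 119, with 8.07, 6.25 and 8.49 FPKM against 5.80, 5.96 and 5.78 FPKM. Every high library was above every low library, with high library 2 nearest to the low group (log2 difference 0.32, SE 0.105; limma adjusted p = 0.564). Sfswap, a splicing regulator with an SR-like domain, had 14.97, 16.8 and 15.3 FPKM against 14.2, 13.1 and 14.0 FPKM, and Rsrp1 had 92.4, 94.2 and 96.5 FPKM against 82.6, 82.3 and 89.0 FPKM. These were separate as well, both with limma adjusted p of 0.582. Txnl4a, a small protein of the U5 snRNP, had 9.14, 9.61 and 9.22 FPKM against 7.71, 9.004 and 7.06 FPKM, with separate groups and low library 2 close to the high libraries (log2 difference 0.21, SE 0.0880; limma adjusted p = 0.582). Sart1, a protein of the tri-snRNP, had 17.96, 19.5 and 17.7 FPKM against 16.8, 17.4 and 15.2 FPKM and was separate too (log2 difference 0.15; limma adjusted p = 0.605).

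Among the further regulators, Raly, an hnRNP-related protein, had 17.7, 17.5 and 18.8 FPKM against 16.7, 15.99 and 16.2 FPKM, and Pcbp4, which binds poly(C), had 35.4, 36.2 and 37.4 FPKM against 34.9, 30.5 and 32.9 FPKM. Both were separate, with log2 differences of 0.14 and 0.15 and limma adjusted p of 0.596 and 0.599. Snrpa, the U1 A protein, had 24.5, 24.8 and 23.8 FPKM against 23.5, 21.2 and 23.0 FPKM and was separate by a narrow margin. Sf3b6, a U2 snRNP protein, and Snrpd1, an Sm protein, had overlapping groups and log2 differences of −0.12 and −0.16. None of these genes passed after adjustment. With the GC and length trend removed, the log2 difference was 0.08 for Raly, 0.09 for Pcbp4 and 0.05 for Snrpa (0.11 before). It was 0.15 for Sfswap, 0.13 for Rsrp1, 0.15 for Sart1, −0.10 for Sf3b6 and −0.13 for Snrpd1. For Snrpe (0.37) and Txnl4a (0.22) it was not smaller than before.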

How the data were processed

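Poly(A) RNA from 3 libraries of a high and 3 of a low sexual motivation group was sequenced. The deposited values are FPKM, per the name of the deposited table; fastp, HISAT2, StringTie and the build GRCm38 are named, per the submitters' processing notes, with no versions, settings or strand use. The authors' deposited log2 fold change equals log2 of the ratio of mean FPKM in all 13170 entries (tolerance 1e-06), and their p-value carries no adjustment.

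FPKM are not counts, so no count model was fitted. Genes averaging 1 FPKM or more were compared as log2(FPKM + 1) with limma 3.58.1 in R 4.3.3 (variance trend, 2-sided, Benjamini-Hochberg at 0.05 over all 12026 tested genes). The fit was also run on simulated data with noise drawn independently for each gene and library. That simulation lacks the trends that genes share within these libraries, so it does not test the fit under them. Relative depth was inferred from the most common ratio to high library 1 over 1428 genes under 1.5 FPKM. In each other library 28 to 37 genes shared that ratio, and absolute depth is unknown. Gene models, GC content and length are from GENCODE M21, matched for 13040 symbols. Python 3.11.15, pandas 2.3.3 and scipy 1.17.1 did the rest.

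Members and lists were chosen with earlier results of these data known. Values per library are given for the 10 members with the smallest p, those with separate groups, the 3 highest and 3 lowest, and the paralog sets. From each machinery list they are given for up to 2 genes, those with the smallest p. Srsf2 and Hnrnpab, the GC relation, the motifs and the paralog ratios were chosen after their values were seen.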

Additional observations from a re-analysis of the deposited data

How the results depend on the processing

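Over the 19 alternatives (pseudocounts of 0.1 and 0.5, other filters and scalings, the replicate block, robust fitting, array weights, a fit without variance trend, removal of the GC and length trend, and each library left out), limma called 0 members and 0 genes of the table each time, and the smallest adjusted p of a member was 0.255. Leaving out 1 library at a time gave 0 to 5 members with an unadjusted p under 0.05 (0 without low library 1, 1 without low library 2, which was Srsf9 and not Mbnl2, and 5 without high library 2) and 5 to 11 members with separate groups, where fewer libraries separate more easily (22.1% to 28.5% of all genes). In the same fits, with 1 library left out, the median difference ran from −0.06 to −0.0062 over all members, and over the Rbfox, Nova, Celf and Mbnl genes from −0.0667 to 0.0208, the last without high library 3. It ran from −0.07 to 0.04 over the SR genes and from −0.06 to 0.0088 over the hnRNP genes. With the GC and length trend removed, the median turned positive over all members (0.02, with 29 of 45 above 0), the hnRNP genes (0.03) and the Rbfox, Nova, Celf and Mbnl genes (0.0015), and was 0.01 over the SR genes. Over all genes in that fit it was 0.0068, with 6310 of 11910 above 0. In that fit 3 members had an unadjusted p under 0.05, and 2 with the replicate block as well; the replicate block alone left 1, Mbnl2. Same-numbered libraries did not deviate together (correlations of −0.09, −0.21 and −0.16), so the numbers were not treated as pairs.

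Of 491 values for 26 named members, 472 kept their sign, but many of these could not change. The other filters, the replicate block, robust fitting and the fit without variance trend leave a log2 difference as it is. With the GC and length trend removed, with or without the replicate block, the log2 difference was 0.0173 for Hnrnpa2b1, 0.0720 for Hnrnpr and 0.0042 for Hnrnpu. Leaving out 1 library at a time, signs also changed for Hnrnpa2b1 (−0.108 to 0.0418), Hnrnpr (−0.0615 to 0.0146), Rbfox1 (−0.105 to 0.0312), Rbfox2 (−0.0789 to 0.0276), Mbnl1 (−0.339 to 0.00834), Srsf2 (−0.0640 to 0.164) and Hnrnpab (−0.199 to 0.0271). The difference in the ratio of Mbnl2 to Mbnl1 then ran from −0.578 to 0.110 and that of Rbfox2 to Rbfox1 from −0.0046 to 0.104; this check of the ratios was added after seeing the data. For Ptbp2 to Ptbp1 this difference ran from −0.267 to −0.164. Its sign could not change, because the 2 groups did not overlap in that ratio, so the check shows only how its size varied. With 3 libraries a group, the unadjusted 95% interval of a typical member reached 14.5% above and 12.6% below its estimate, in FPKM + 1.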
